A study of Macaca mulatta with 24 samples.

Results

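Matrix metalloproteinases (MMPs) are zinc-dependent enzymes that cut collagens, basement membrane proteins and other parts of the extracellular matrix, and the tissue inhibitors of metalloproteinases (TIMPs) are small secreted proteins that bind their active site and block them. Most MMPs are made as inactive proenzymes, so the amount of mRNA is only one of several levels at which their activity is set. In the gut they are known from remodelling of the lamina propria and from the response to injury. MMP7 is known from the activation of antimicrobial peptides that Paneth cells make.

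The expression of 10 genes was followed here in ileum: MMP1, MMP2, MMP3, MMP7, MMP9, MMP12, MMP14, TIMP1, TIMP2 and TIMP3. Members were found as every array probe that carries one of these gene symbols in the deposited normalized table. All 10 genes had a probe, with 18 probes in all among the 43603 of the array, and 17 of the 18 were tested. TIMP3 had 6 probes, MMP1, TIMP1 and TIMP2 had 2 each, and the others had 1. A gene is described below by its brightest tested probe, and the other probes are given where they differ.

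Total RNA from the ileum of 24 male rhesus macaques (Macaca mulatta) was hybridized to Agilent single-color arrays, 1 array for each animal. All were young adults. A single total-body irradiation (TBI) with gamma rays, at 6.7 Gy or at 7.4 Gy, was given to 20 of them. At each dose 4 animals were sampled on day 4, 4 on day 7 and 2 on day 12. The 4 controls were sham-irradiated (0 Gy) and are labelled day 4, so that the same 4 animals served for every day and the 6 comparisons with them are not independent. RNA was taken from a whole piece of ileum with all its layers, so for every gene fewer cells of a type and less RNA for each cell cannot be told apart.

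The signal of a probe is given as log2 of its background-subtracted intensity minus the 75th percentile of the array, so 0 is that percentile and 1 unit is a doubling. Between 72.7% and 88.1% of probes on an array were well above background, and no probe was saturated. A probe was called changed where limma's p, adjusted by Benjamini-Hochberg over 36108 probes, was below 0.05 and the difference was 2-fold or more. Group and array position on the slide go together: all controls lie in position 1, and position and group cannot be told apart for days 7 and 12 against the controls. All 4 arrays of day 4 after 7.4 Gy lie in position 2, where no control lies. Only the 4 arrays of day 4 after 6.7 Gy, 2 in each of positions 1 and 2, link them to the controls. Among markers of ileum, 4 of the 5 tested for enterocytes and all tested for Paneth cells (4) and smooth muscle (3) were well above background on all 24 arrays, and the enterocyte marker FABP2 was so on 10. One control stands apart: replicate 1 had a mean smooth muscle marker signal of 4.81 against 6.65 to 6.86 in the other controls, and the main values that it moved are also given without it.

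MMP2, the gelatinase that cleaves type IV collagen and denatured collagens, was the only member called in any comparison. In the 4 controls its signal was 1.44, 2.17, 2.16 and 1.76. On day 4 it was 2.98, 3.68, 3.09 and 2.60 after 6.7 Gy. After 7.4 Gy it was 3.73, 3.76, 3.28 and 3.36. All 8 animals of day 4 lay above all 4 controls. MMP2 rose 2.30-fold after 6.7 Gy (log2 change 1.20 ± 0.24 SE, n = 4 against 4, limma adjusted p = 0.013). It rose 3.13-fold after 7.4 Gy (log2 change 1.65 ± 0.24 SE, limma adjusted p = 7.1e-04).

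On day 7 the mean MMP2 signal of each dose lay between its day 4 mean and the controls. The signal was 2.59, 2.75, 1.92 and 2.55 after 6.7 Gy, where 3 of the 4 animals were above all controls. After 7.4 Gy it was 2.82, 2.68, 2.45 and 3.47, all above the controls. Neither dose passed the test on day 7. The log2 change against the controls was 0.57 ± 0.24 after 6.7 Gy (limma adjusted p = 0.45) and 0.97 ± 0.24 after 7.4 Gy (limma adjusted p = 0.061), and the latter falls short of the 2-fold threshold as well.

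On day 12 the 2 animals of each dose had nearly the same MMP2 signal, 2.34 and 2.22 after 6.7 Gy and 2.53 and 2.29 after 7.4 Gy. All 4 were still above the highest control, and the log2 changes of 0.40 and 0.53 did not pass the test (limma adjusted p = 0.72 and 0.71). Between days at the same dose, the fall from day 4 to day 12 passed the test after 7.4 Gy, where MMP2 fell by 1.12 on the log2 scale (SE 0.30, limma adjusted p = 0.044). After 6.7 Gy the difference was -0.80 (SE 0.30, limma adjusted p = 0.093). This call was kept in 21 of 38 alternative settings. It was lost with slide as a block (-1.08, limma adjusted p = 0.12), without replicate 1 or replicate 2 of day 12 (0.17 and 0.23) and without any single animal of day 4 after 7.4 Gy (0.052 to 0.11).

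Ordered by group mean, MMP2 rose from the controls (1.88 ± 0.35 SD, n = 4) over day 12, day 7 and day 4, with 7.4 Gy above 6.7 Gy on each day, to 3.53 ± 0.25 (SD, n = 4) on day 4 after 7.4 Gy. Only the controls and day 12 after 6.7 Gy, the lowest pair in this order, did not overlap; every other pair of neighbours did. The higher dose exceeded the lower by 0.44 on day 4 (95% interval -0.06 to 0.95), 0.40 on day 7 (-0.11 to 0.91) and 0.13 on day 12 (-0.59 to 0.85). None of these passed the test (limma adjusted p = 0.88, 0.99 and 0.97), and all 3 intervals include 0.

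**Figure D1:**
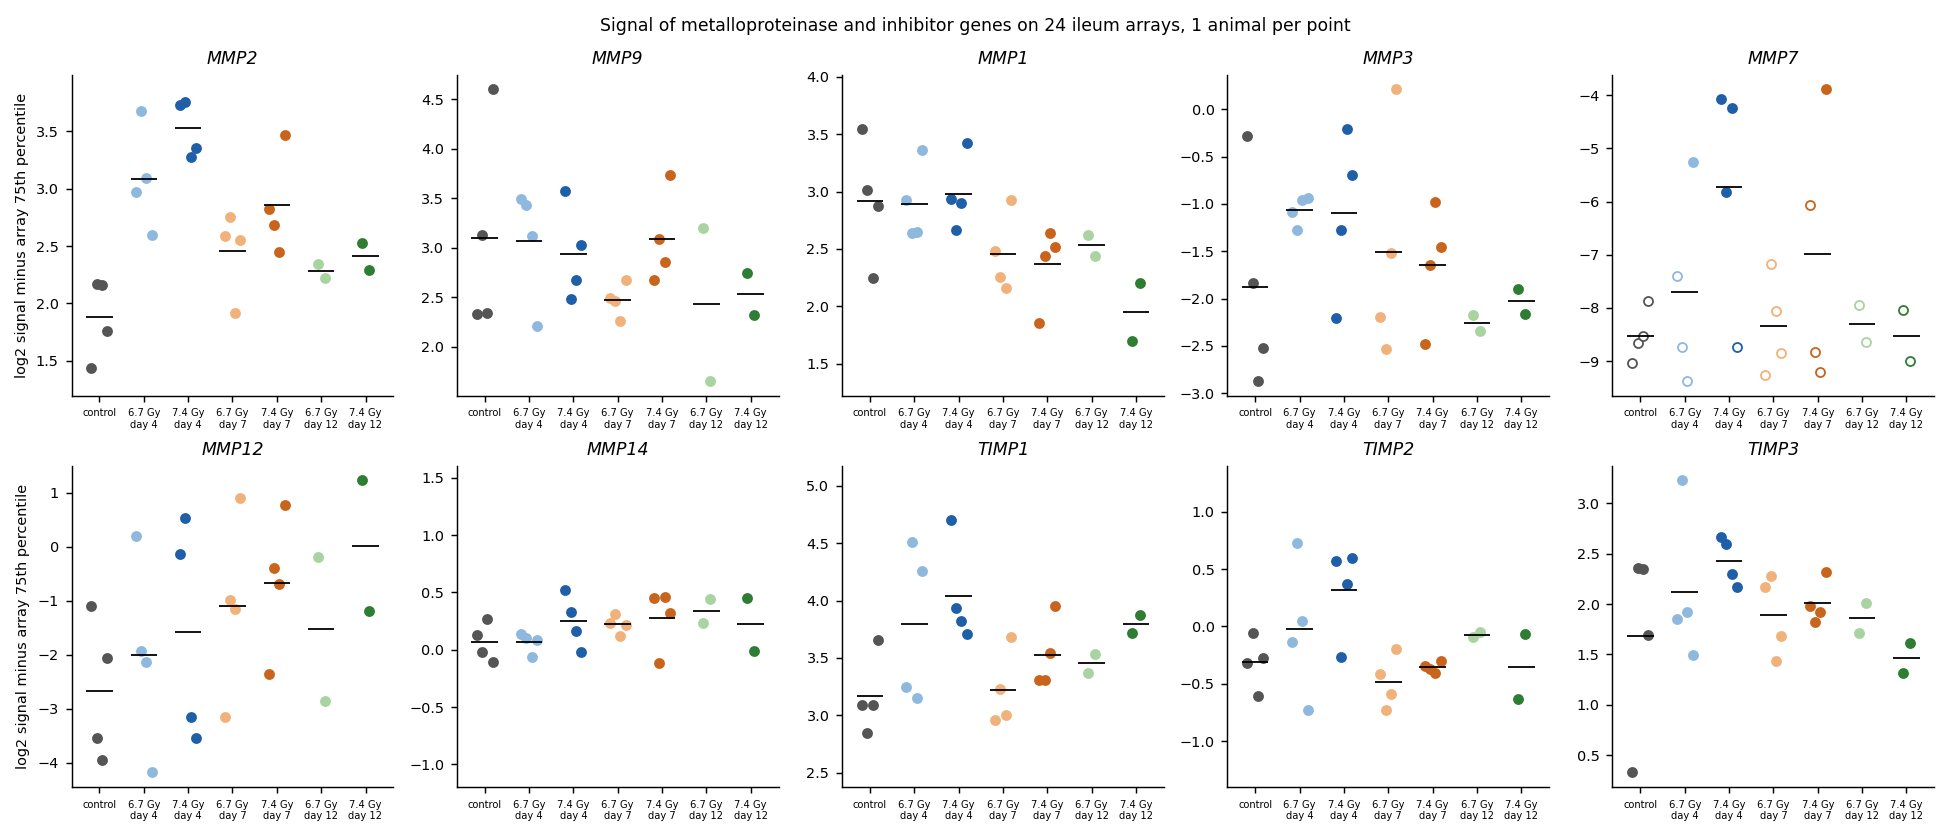
Signal of each gene (brightest tested probe; MMP7 was not tested) as log2 intensity minus the 75th percentile of the array, by group, 1 point for each animal and a bar for the group mean. Open points were not well above background. Every day 4 animal has more MMP2 signal than any control, from 2.60 to 3.76 against 1.44 to 2.17, while MMP14 stays between -0.12 and 0.52 on all 24 arrays and MMP12 spreads widely within each group.

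Because array position and group go together, MMP2 was also compared with position or slide held alike, though not both at once. Within position 1, the 2 animals of day 4 after 6.7 Gy had signals of 2.98 and 3.68 against 1.44 to 2.17 in the controls, a log2 difference of 1.44 (limma adjusted p = 0.023). These 2 arrays lie on slides that hold no control, so slide differs there. With position as a covariate the log2 change of day 4 was 1.44 after 6.7 Gy and 2.13 after 7.4 Gy (limma adjusted p = 0.027 and 0.035). That fit takes the effect of position 2 only from the 4 arrays of day 4 after 6.7 Gy, 2 in each position. Their mean MMP2 signal was 3.33 in position 1 and 2.84 in position 2. All 4 arrays of day 4 after 7.4 Gy lie in position 2, so the 2.13 rests on that difference between 2 pairs of animals. Against the control on its own slide, MMP2 was higher on 4 of 4 arrays of day 4 that share a slide with a control, by 0.43 to 1.999. These 4 arrays lie in position 2 and the controls in position 1, so position differs there. Without control replicate 1, which has the lowest MMP2 signal, the log2 change was 1.06 after 6.7 Gy (limma adjusted p = 0.049) and 1.50 after 7.4 Gy (limma adjusted p = 0.0045). The call after 6.7 Gy was lost when limma was fitted on the 2 groups alone (adjusted p = 0.16).

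The second gelatinase is MMP9, made largely by neutrophils and macrophages, and it was not called in any comparison. The control signals were 2.33, 3.13, 2.34 and 4.60, and the fourth exceeds every other array of the series. Day 4 ran from 2.22 to 3.49 after 6.7 Gy and from 2.48 to 3.57 after 7.4 Gy, inside the control range except for the lowest. The log2 change on day 4 was -0.04 ± 0.43 after 6.7 Gy and -0.17 ± 0.43 after 7.4 Gy. Without control replicate 4 these turned to 0.46 and 0.33, so the data give no direction for MMP9. Over the 6 comparisons with the controls its limma adjusted p was 0.72 or higher.

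MMP14 is anchored in the cell membrane and is the main activator of pro-MMP2. Its signal was the steadiest of the members, from -0.12 to 0.52 over all 24 arrays, a range of 1.56-fold. On day 4 the log2 change was 0.00 ± 0.14 after 6.7 Gy (95% interval -0.30 to 0.30) and 0.18 ± 0.14 after 7.4 Gy (-0.12 to 0.49). The upper ends of these intervals lie under the 2-fold threshold, so a 2-fold rise of MMP14 on day 4 is outside them, at both doses at which MMP2 rose.

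Of the interstitial collagenases and stromelysins, MMP1 cuts fibrillar collagen and MMP3 cuts a wide range of matrix proteins and activates other MMPs. On day 4 MMP1 was at 2.64 to 3.36 after 6.7 Gy and 2.67 to 3.42 after 7.4 Gy, all within the control range of 2.25 to 3.55. On day 12 after 7.4 Gy both animals, at 1.69 and 2.20, lay below all controls. The log2 change there was -0.97 ± 0.31 (limma adjusted p = 0.31), and the second MMP1 probe gave -1.07 (limma adjusted p = 0.26), neither of which passed the test. Against day 4 of the same dose MMP1 was at -1.04 ± 0.31 (limma adjusted p = 0.068). This difference passed with quantile normalization (-1.09, limma adjusted p = 0.046), without control replicate 1 (0.042) and without replicate 4 of day 4 after 6.7 Gy (0.048).

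MMP3 varied widely between the control animals. The 4 controls were at -0.29, -1.84, -2.87 and -2.52, where the first is the control that stands apart in smooth muscle markers. On day 4 after 6.7 Gy the animals were close together, at -1.08, -1.27, -0.96 and -0.93, and after 7.4 Gy they were spread over -2.21, -1.28, -0.21 and -0.69. The log2 changes of 0.82 ± 0.55 and 0.78 ± 0.55 did not pass the test (limma adjusted p = 0.37 and 0.41). Without control replicate 1 they came to 1.35 and 1.32, with limma adjusted p = 0.18 for both.

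MMP12, the macrophage elastase, had the widest spread of the 9 tested genes. Its signal ran from -4.17 to 1.23 over the 24 arrays, a 42.3-fold range, and its within-group SD of 1.67 is at percentile 99.8 of the tested probes, whose median SD is 0.29. In the controls it was -1.09, -3.55, -3.95 and -2.05. The log2 change was positive in all 6 comparisons, 0.66 and 1.09 on day 4, 1.56 and 1.997 on day 7 and 1.14 and 2.68 on day 12 (the lower dose first), with SEs of 1.09 to 1.34. None passed the test (limma adjusted p from 0.44 to 0.83), and the 6 share the same controls. Leaving out replicate 1 of day 4 after 6.7 Gy turned that change to -0.081, and leaving out replicate 1 of day 12 after 6.7 Gy turned it to -0.20. Leaving out control replicate 1 gave 1.18 and 1.61 on day 4, and array position as a covariate gave 1.80 and 3.38, with limma adjusted p of 0.39 or higher in each. On day 12 after 7.4 Gy the animals stood at 1.23 and -1.19, so that 1 of the 2 was above all controls.

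**Figure D2:**
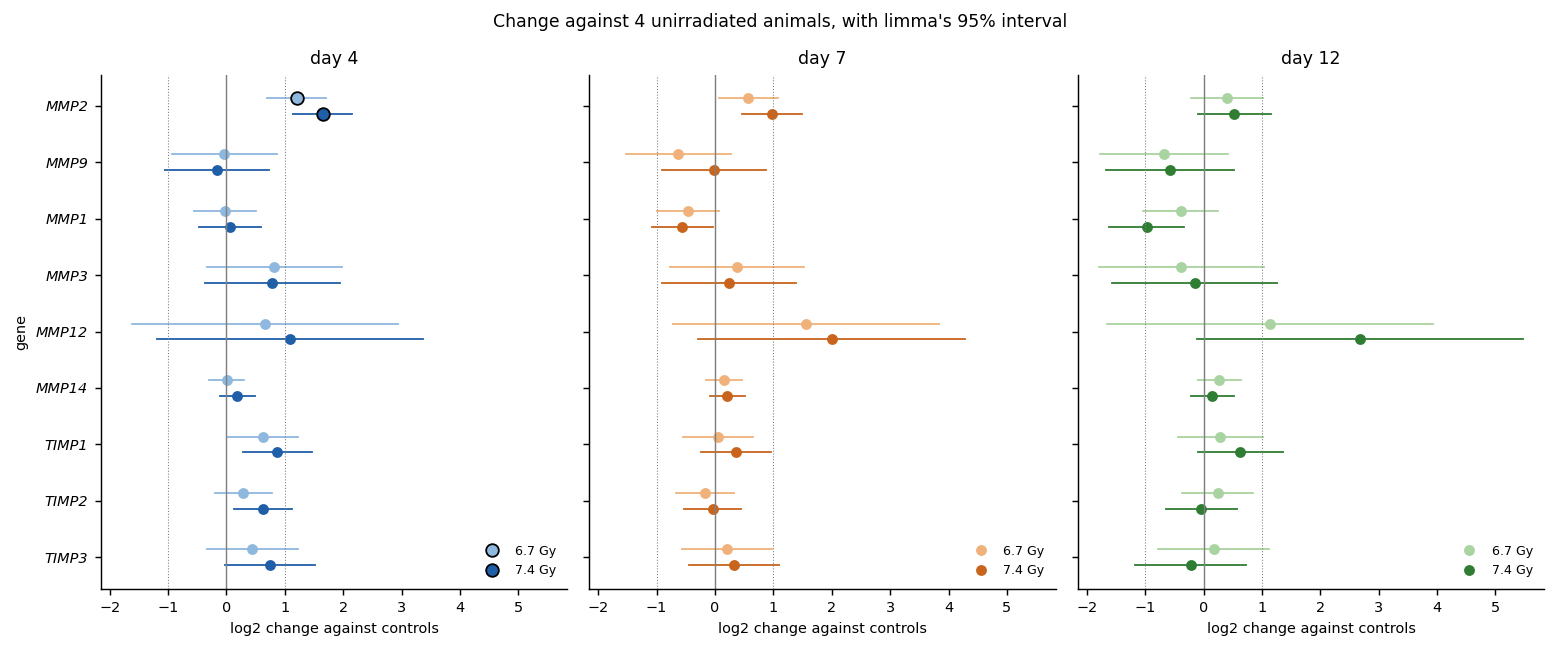
Log2 change of each gene against the 4 controls on days 4, 7 and 12, with limma's 95% interval, paler for 6.7 Gy and darker for 7.4 Gy. A black rim marks a called change, solid grey is 0 and the dotted lines are a 2-fold change. MMP2 on day 4, at 1.20 and 1.65, carries the 2 rims, and MMP12 has the widest intervals.

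MMP7 (matrilysin), which the study describes as an epithelial enzyme that activates the defensin of Paneth cells, was at the edge of detection. Its probe was well above background on 5 of the 24 arrays and on 0 of the 4 controls, so it was not tested. Above background were 3 of 4 animals of day 4 after 7.4 Gy, with signals of -4.08, -5.83 and -4.24, and 1 of 4 after 6.7 Gy, at -5.26. The fifth was 1 of 4 animals of day 7 after 7.4 Gy, at -3.89. None of the 4 animals of day 7 after 6.7 Gy and none of the 4 of day 12 was above background.

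In the controls the MMP7 signal was between -9.04 and -7.86, below the lowest signal that counted as well above background on these arrays, and such values give only an upper limit. With each control set to that lowest signal of its own array, the mean of day 4 after 7.4 Gy (-5.72, with 3 of 4 animals measured) was at least 1.97-fold higher than the controls. That mean counts replicate 4, which was not well above background, at its own signal. Without replicate 4 the limit was 3.96-fold, and without any other single array of that group or of the controls it was 1.35-fold to 2.13-fold. No limit can be given for the other groups, whose means lie below the control limit. Of the 4 Paneth cell markers tested, 0 were called by limma in any comparison, and their mean signal was 4.15 to 5.08 in the controls and 4.37 to 5.39 on day 4 after 7.4 Gy.

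**Figure D3:**
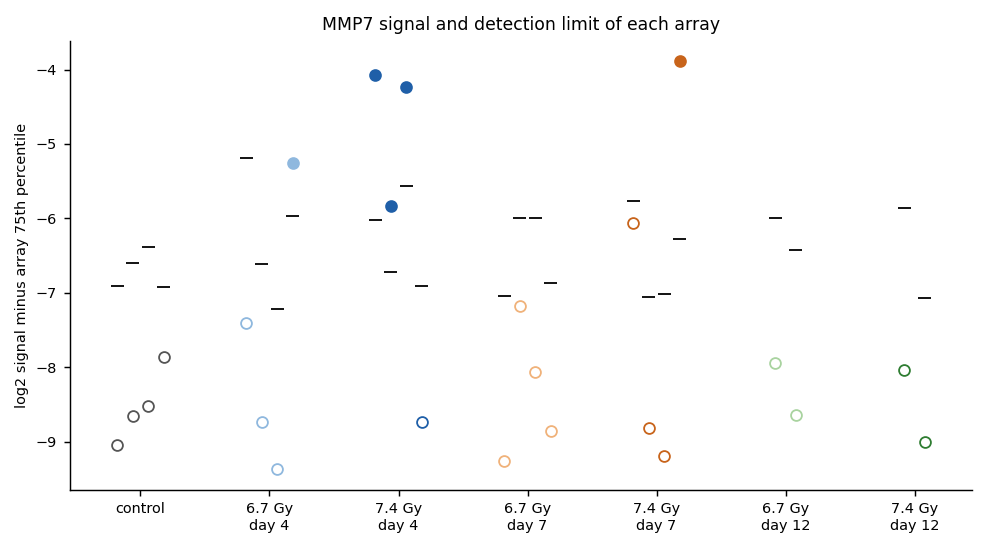
MMP7 signal of each array (points, filled where well above background) and the lowest signal that was well above background on the same array (short bars), as log2 intensity minus the 75th percentile of the array, by group. All 4 controls lie below their bars, and 5 irradiated arrays lie above theirs, 3 of them from day 4 after 7.4 Gy.

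In the current RefSeq annotation (T2T-MMU8v2.0), 9 MMP genes lie side by side between TMEM123 and DCUN1D5, in the order MMP7, MMP20, MMP27, MMP8, MMP10, MMP1, MMP3, MMP12 and MMP13. The arrays were designed on an older assembly, so this order serves only to name neighbours. Of the 9, MMP1, MMP3 and MMP12 were measured on all 24 arrays. MMP20, MMP27, MMP8, MMP10 and MMP13 had probes, as MMP7 did, and no group had any of these well above background on all its arrays.

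All 3 TIMPs had positive log2 changes on day 4 at both doses, though that of TIMP3 after 6.7 Gy turned to -0.010 without control replicate 1, and none was called by limma with all 24 arrays and no term for slide. TIMP1, the inducible inhibitor that binds MMP9 and its proenzyme, was at 3.08, 2.85, 3.08 and 3.65 in the controls. After 7.4 Gy it was 4.70, 3.93, 3.82 and 3.71 on day 4, all above the controls. After 6.7 Gy it was 3.25, 4.51, 3.15 and 4.26, where 2 of 4 were above all controls. The log2 change was 0.87 ± 0.29 after 7.4 Gy (1.83-fold, limma adjusted p = 0.070) and 0.63 ± 0.29 after 6.7 Gy (limma adjusted p = 0.20). Without single arrays it ran from 0.65 to 1.03 after 7.4 Gy and from 0.39 to 0.84 after 6.7 Gy. The second TIMP1 probe gave 1.06 (limma adjusted p = 0.066) and 0.93 (limma adjusted p = 0.12).

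The TIMP1 values of the second probe depend on the setting. With slide as a block it was called after 6.7 Gy (1.32, limma adjusted p = 0.035) and after 7.4 Gy (1.21, limma adjusted p = 0.027). At the higher dose it was also called with slide as a random block (1.08, limma adjusted p = 0.043), without replicate 4 of day 4 after 6.7 Gy (0.045), without control replicate 4 (0.048) and by the methods' t-test without adjustment. The brightest probe was called in 0 of 40 alternative settings after 6.7 Gy by any test, slide as a block included (0.88, limma adjusted p = 0.12). For it at 7.4 Gy, without control replicate 4, the highest of the controls, the log2 change was 1.03 with a limma adjusted p of 0.046, which passes, and with array position as a covariate it was 1.05 with a limma adjusted p of 0.32. On day 7 the log2 change was 0.05 after 6.7 Gy and 0.36 after 7.4 Gy. On day 12 after 7.4 Gy both animals, at 3.71 and 3.88, were above all controls (log2 change 0.63 ± 0.35, limma adjusted p = 0.70).

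TIMP2 inhibits MMP2 and, in complex with MMP14, also takes part in its activation. Its signal in the controls was -0.32, -0.05, -0.60 and -0.27. On day 4 after 7.4 Gy it was 0.57, -0.27, 0.37 and 0.59, so that 3 of 4 animals were above all controls. The log2 change was 0.63 ± 0.24 (limma adjusted p = 0.11), and 0.29 ± 0.24 after 6.7 Gy (limma adjusted p = 0.46). With array position as a covariate these were 1.27 and 0.61 (limma adjusted p = 0.13 and 0.31). Without single arrays the log2 change ran from 0.53 to 0.82 after 7.4 Gy and from 0.041 to 0.53 after 6.7 Gy. On day 7 the 4 animals of 7.4 Gy lay close together, from -0.41 to -0.30, within the control range.

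TIMP3 stays bound to the matrix after secretion and inhibits ADAM proteinases as well as MMPs. Its control signals were 0.33, 2.36, 2.35 and 1.69, with the control that stands apart lowest. On day 4 it was 1.85, 3.23, 1.92 and 1.49 after 6.7 Gy and 2.66, 2.59, 2.30 and 2.16 after 7.4 Gy. The log2 change after 7.4 Gy was 0.75 ± 0.37 (limma adjusted p = 0.23), without control replicate 1 it was 0.30 (limma adjusted p = 0.64), and with array position as a covariate it was 1.58 (limma adjusted p = 0.23). After 6.7 Gy it was 0.44 (limma adjusted p = 0.48), and with position as a covariate it was 0.86 (limma adjusted p = 0.38). The 6 probes of TIMP3 gave log2 changes from 0.23 to 0.94 after 7.4 Gy and from -0.09 to 0.66 after 6.7 Gy, and no probe was called (lowest limma adjusted p = 0.093).

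Of the 17 member probes, 1 was called in each of 3 comparisons. On day 4 after 6.7 Gy 1 of 17 probes was called, where 0.978% of all tested probes were. After 7.4 Gy it was also 1 of 17, beside 2.33% of all tested probes. From day 4 to day 12 after 7.4 Gy it was 1 of 17, beside 1.8%. In each of these the 1 probe was that of MMP2, so the members' share, though above that of all tested probes, rests on a single gene. With control replicate 1 left out, the count was still 1 of 17 on day 4 at each dose, beside 0.615% and 1.11% of all tested probes.

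In the other comparisons 0 of 17 probes were called by limma, and the shares of all tested probes were as follows. Against the controls they were 0.235% for day 7 after 6.7 Gy, 0.568% for day 7 after 7.4 Gy, 0.108% for day 12 after 6.7 Gy and 0.0443% for day 12 after 7.4 Gy. Between the doses they were 0% on day 4, 0% on day 7 and 0.00277% on day 12. Between days they were 0.354% for day 7 against day 4 after 6.7 Gy, 0.942% for the same after 7.4 Gy, and 2.59% for day 12 against day 4 after 6.7 Gy. At an unadjusted limma p under 0.05 with a 2-fold change, 1 probe, the second one of MMP1, passed in day 12 after 7.4 Gy against the controls, and 0 in the other 9 of these 10 comparisons.

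The medians of the member probes were set beside those of all tested probes. On day 4 the median log2 change over the 17 member probes was 0.55 after 6.7 Gy and 0.72 after 7.4 Gy, beside -0.10 and -0.07 over all tested probes, and 13 and 15 of 17 were above 0. Leaving out control replicate 1 gave day 4 medians of 0.29 and 0.52, with 14 and 16 of 17 above 0. On day 7 the medians were 0.10 and 0.33, beside -0.0026 and -0.03. By day 12 they were 0.29 and 0.10, beside 0.06 and -0.01. The medians of day 7 were -0.17 and 0.17 and those of day 12 were 0.20 and -0.08 without control replicate 1, so the sign turned on day 7 after 6.7 Gy and on day 12 after 7.4 Gy. TIMP3 alone supplies 6 of the 17 probes, which are not independent. Counted by gene, 7 of 9 after 6.7 Gy and 8 of 9 after 7.4 Gy had a positive log2 change on day 4.

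MMP2 was set against each inhibitor on the same array, as the difference of the log2 signals, to see whether enzyme and inhibitor moved by the same amount. Only its change between groups can be read, since levels of different probes are not comparable. On day 4 after 6.7 Gy MMP2 minus TIMP2 was 2.95 to 3.32 against 1.76 to 2.77 in the controls, 0.91 higher (exact permutation test over animals, two-sided, p = 0.029, the smallest that 4 against 4 allows). On day 7 after 7.4 Gy it was 1.02 higher, with the same exact p = 0.029. After adjustment over the 12 tests (3 inhibitors and 4 groups) both exact permutation p-values were 0.15. With so few animals a single difference could not pass this adjustment even at the smallest exact p, so the adjusted values say little. All 12 were positive, from 0.36 to 1.02, with the same controls in each. They were 0.40 to 1.20 without control replicate 1, and the lowest adjusted exact permutation p was 0.07.

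**Figure D4:**
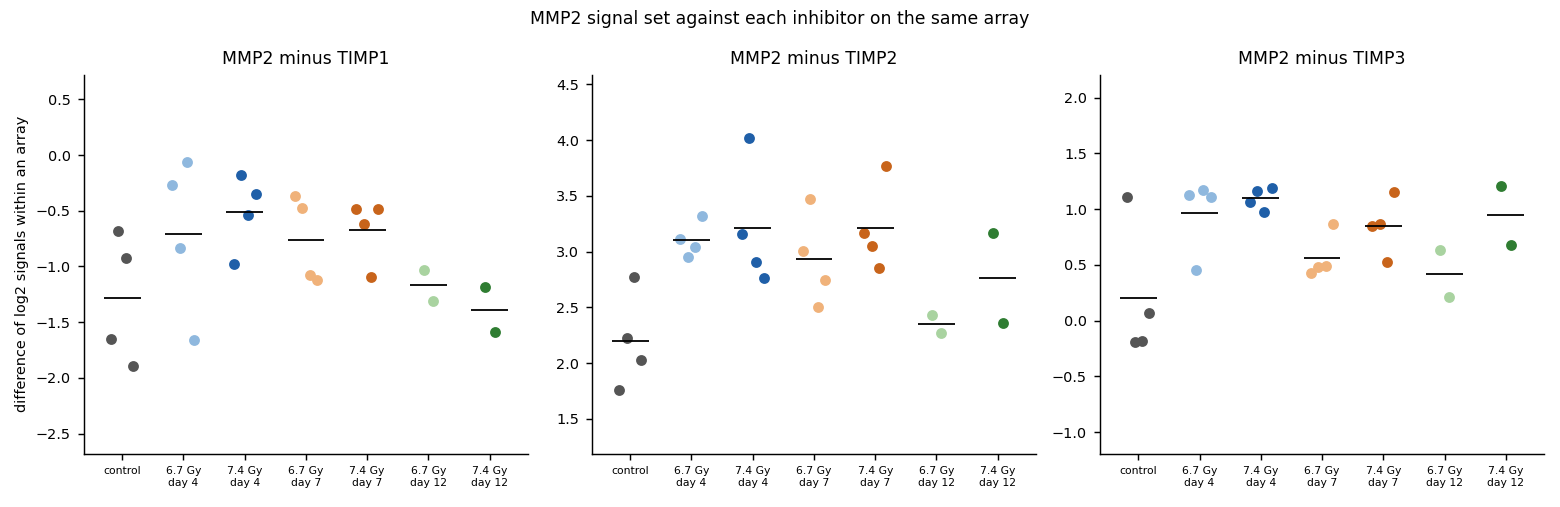
Difference of the log2 signals of MMP2 and TIMP1, TIMP2 or TIMP3 on the same array, by group, 1 point for each animal and a bar for the group mean. The position of a panel on its axis has no meaning across panels. For TIMP2 the 4 animals of day 4 after 6.7 Gy, from 2.95 to 3.32, lie above the 4 controls, from 1.76 to 2.77.

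MMP2 and TIMP3 varied together between animals of the same group. As deviations from the group means over 24 arrays, their signals had a Pearson r of 0.80 (permutation within groups, p = 3e-05) and a Spearman rho of 0.80 (permutation p = 8e-05). Adjusted over the 36 pairs of the 9 tested genes these were 0.0011 and 0.0029. Without the 2 arrays farthest from the median of MMP2, r was 0.77, and without control replicate 1 it was 0.81. The signals share the array and its scaling.

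No other pair of the 36 passed. MMP1 and MMP3, neighbours in the genome, came next with r = 0.68 and rho = 0.62, with adjusted permutation p = 0.079 and 0.076. Their r was 0.57 without control replicate 1 and 0.54 without the 2 arrays farthest from the median of MMP1. MMP3 and TIMP3 had r = -0.58 and rho = -0.60 and adjusted permutation p = 0.12 and 0.076. The r of MMP3 and TIMP3 was -0.35 without control replicate 1.

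The genes whose signal most resembled MMP2 over the 24 arrays were LOC696453 (Pearson r = 0.91), LOC709782 (0.90) and FSTL1 (0.90), as a description of 24 arrays that share the group differences. RefSeq lists the first as TCEAL4 and the second as PHLDA3. As deviations from group means their r with MMP2 was 0.72, 0.57 and 0.78. FSTL1 had a mean of 2.03 in the controls, 2.81 and 3.05 on day 4, and 2.18 and 2.29 on day 12, the lower dose first.

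Genes that mark fibroblasts, which make MMP2 in most tissues, were read beside it. Of 8 fibroblast markers, all 8 tested, 8 had a positive log2 change on day 4 at each dose, with a median of 0.35 after 6.7 Gy and 0.81 after 7.4 Gy. After 7.4 Gy 3 were called, DCN (1.26), LUM (1.09) and COL3A1 (1.01), beside 2.33% of all tested probes. After 6.7 Gy 0 were by limma (2 at an unadjusted p under 0.05), beside 0.978%. Their mean signal was 0.33 to 0.95 in the controls, 0.91 to 1.90 on day 4 after 6.7 Gy and 1.43 to 2.05 on day 4 after 7.4 Gy. The lowest control is replicate 1, and the other controls were at 0.88 to 0.95. On day 4 after 6.7 Gy 3 of the animals were at 0.91, 0.96 and 1.04, close to those controls, and replicate 2 was at 1.90. Without control replicate 1 the median after 6.7 Gy was 0.21, with 7 of 8 above 0. At 7.4 Gy it was 0.71, and DCN was the 1 marker still called. On day 7, 3 of 8 were above 0 after 6.7 Gy, at a median of -0.05, and 8 of 8 after 7.4 Gy, at a median of 0.54. On day 12 the mean signal was 0.52 to 0.999 after 6.7 Gy and 0.68 to 0.93 after 7.4 Gy. Of the 5 enterocyte markers tested, VIL1 fell on day 4 at both doses (-1.32 after 6.7 Gy and -1.27 after 7.4 Gy, called in both). The part of these cells in the MMP2 values was not tested.

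Of the macrophage markers 5 were tested and CD14 was called on day 4 after 7.4 Gy (1.14), where 2.33% of all tested probes were. The mean macrophage marker signal was 1.07 to 1.41 in the controls and 1.53 to 2.17 in that group. CSF1R and C1QC were measured on all 24 arrays, and MARCO was not above background on all arrays of any group. Of 6 tested genes listed as neutrophil markers, FCGR3 was the only one called on day 4 after 7.4 Gy (1.13), while 4 of the 6 were above 0 at a median of 0.35. Whether FCGR3 marks neutrophils in this species was not tested. The mean marker signal was -3.50 to -3.11 in the controls and -3.32 to -2.59 in that group. On day 4 after 6.7 Gy the median was 0.80, with 4 of 6 above 0 and a mean signal of -3.46 to -1.05, the highest in replicate 4. There FCGR3 was called only without control replicate 1 (1.44, limma adjusted p = 0.011), and MPO was not above background on all arrays of any group. The part of these cells in the values of MMP9 and MMP12 was not tested. Of the 5 endothelial markers tested, VWF (1.12) was called on day 4 after 7.4 Gy, but not without control replicate 1 (0.85, limma adjusted p = 0.15).

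Among 12 other MMPs on the array 6 were tested, and MMP16, a membrane-bound MMP, was the only one called. Its signal was -5.94 to -4.70 in the controls and -3.86 to -3.39 on day 4 after 7.4 Gy (log2 change 1.46, limma adjusted p = 0.017), where 2.33% of all tested probes were called. It was well above background on 22 of the 24 arrays, all 4 controls included. The control signals lie near the lowest signals that counted as well above background, which ran from -7.22 to -5.19 over the arrays. MMP16 was not called without control replicate 1 (1.18, limma adjusted p = 0.068). MMP25, a leukocyte MMP, was below the controls on day 4 after 6.7 Gy with a log2 change of -0.94 and an adjusted p of 0.0012 by limma, which falls short of the 2-fold threshold. Its signal was 0.15 to 0.29 in the controls and -0.91 to -0.57 in that group.

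Of 11 tested genes that restrain or activate MMPs, 4 were called on day 4 after 7.4 Gy, all higher, beside 2.33% of all tested probes. These were RECK (1.17), a membrane-anchored MMP inhibitor, A2M (1.07), the broad proteinase trap, SERPINE2 (1.33), an inhibitor of serine proteinases, and THBS1 (1.44), a matrix protein that binds MMP2 and MMP9. RECK was also the 1 called after 6.7 Gy (1.07), beside 0.978% of all tested probes. Without control replicate 1 neither A2M after 7.4 Gy (0.96, limma adjusted p = 0.053) nor RECK after 6.7 Gy (0.92, limma adjusted p = 0.055) was called, and the other 3 after 7.4 Gy were. From day 4 to day 12 after 7.4 Gy 4 of the 11 were called, all lower, beside 1.8% of all tested probes. RECK fell by 1.12, A2M by 1.11, PLAT by 1.14 and THBS1 by 1.58. On day 4 the log2 change was above 0 for 9 of the 11 after 6.7 Gy and 7 of the 11 after 7.4 Gy. TIMP4, the remaining TIMP, was among those below 0, at -0.82 ± 0.69 and -0.78 ± 0.69 (limma adjusted p = 0.48 and 0.53). The median log2 change of the list on day 4 was 0.51 after 6.7 Gy and 0.79 after 7.4 Gy, beside -0.10 and -0.07 over all tested probes.

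Of 15 tested matrix proteins that MMPs cut, all 15 had a positive log2 change on day 4 after 7.4 Gy. Of these, 5 were called on day 4 after 7.4 Gy, beside 2.33% of all tested probes: VCAN (1.30), DCN (1.26), FBN1 (1.13), FN1 (1.04) and COL3A1 (1.01). After 6.7 Gy 0 of 15 were called by limma (5 at an unadjusted p under 0.05), beside 0.978% of all tested probes. The median log2 change was 0.46, against 0.95 after 7.4 Gy. Without control replicate 1, whose mean over these genes was 0.20 against 1.02 to 1.05 in the other controls, the medians were 0.27 and 0.73, and only VCAN and DCN of the 5 were called. DCN and COL3A1 are also among the fibroblast markers. Of 10 ADAM and ADAMTS proteinases tested, ADAMTS5 (1.40) and ADAMTS2 (1.14) rose on day 4 after 7.4 Gy, while 4 of the 10 were above 0 at a median of -0.05. Neither was called without control replicate 1 (0.96 and 0.92).

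Of 9 tested genes for signals and transcription factors that induce MMPs, such as TNF, IL1B and JUN, 0 were called by limma in the 6 comparisons with the controls, where 0.0443% to 2.33% of all tested probes were, so that a count of 0 is near the background. At an unadjusted limma p under 0.05 there were 1 to 4 of the 9. Their median log2 change on day 4 was -0.25 after 6.7 Gy and -0.08 after 7.4 Gy, and 1 and 2 of the 9 were above 0. Leaving out control replicate 1, whose mean over these genes was -0.49 against -1.36 to -1.04 in the other controls, the medians were -0.21 and -0.02, with 2 and 4 of the 9 above 0. IL6, a cytokine of the acute phase, was higher on day 12 than on day 4, by 1.86 after 6.7 Gy and 1.53 after 7.4 Gy, and was called in both.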

How the data were processed

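Total RNA of ileum was labelled with Cy3 and hybridized to Agilent 4x44K rhesus arrays without pooling. The deposited scanner files hold intensity values that the authors obtained with Feature Extraction 11.0.1.1, background-subtracted and spatially detrended for each spot. The authors also deposited a table of log2 values, normalized to the 75th percentile and centred on the median of each probe. The gene symbols came from it, and its values served as an alternative. The symbols rest on annotation of an older assembly (rheMac2). One label gives 21 days for the last time where the titles, the day field and the study give 12, and 12 was used.

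From the intensity, control and outlier spots were dropped, log2 was taken, the mean was taken over the spots of a probe, and each array was centred on its 75th percentile. Probes entered the test when some group had them well above background on all its arrays (36108 of 43603). One mean for each of 7 groups was fitted with limma 3.58.1 in R 4.3.3 (files read with the data.table package, version 1.17.8), and 13 comparisons were drawn, each with Benjamini-Hochberg adjustment, and a difference was called when the adjusted p was below 0.05 and the fold change reached 2. The procedure was tested on simulated data. Single differences used exact permutation tests, and correlations used 100000 permutations within groups. The p-values measure the spread between animals, and the number of animals limits the precision.

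Members, gene lists and markers were chosen with earlier results of these data known. A gene was described by its brightest tested probe. For MMP2, called against the controls, the 3 genes with the highest Pearson r were named, and of the lists up to 8 called genes with the largest changes. CSF1R, C1QC, MARCO, MPO and MMP25 fall outside this rule and were chosen after their values were seen. Alternatives covered background correction, normalization, the filter on dim probes, moderation, the methods' t-test, the groups in the fit, slide, array position, replicate number, the authors' table and leaving out each array. The comparisons within array position 1 or 2, position as a covariate between the doses on days 7 and 12, the lists and medians without control replicate 1 and the MMP7 limit without single arrays were chosen after seeing the data. TIMP4 and FABP2 were also named after their values were seen.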

Additional observations from a re-analysis of the deposited data

Results flagged for a closer look

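MMP2 differed between the days at the same dose: on day 12 after 7.4 Gy it was at -1.12 on the log2 scale relative to day 4, by a direct limma test of the difference (adjusted p = 0.044), with 2 of 2 animals of day 12 below all 4 of day 4. The call was lost in 17 of 38 alternative settings, among them slide as a block (limma adjusted p = 0.12) and leaving out either day 12 animal (0.17 and 0.23). Both days were set against the same controls, and array position differs between them, in position 4 and position 2.

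MMP7 was not tested, and its signal was well above background on 5 of 20 irradiated arrays and on 0 of 4 controls. On the other 15 irradiated arrays it was not well above background.

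Of 50 groups of 4 arrays examined for a single animal far from the other 3, 0 passed Dixon's critical value.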

How the results depend on the processing

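MMP2 on day 4 after 7.4 Gy was called in 39 of 39 alternatives (log2 change 1.50 to 2.13) and after 6.7 Gy in 38 of 40 (1.01 to 1.44). With the replicate number as a block its log2 change was 1.20 after 6.7 Gy (limma adjusted p = 0.018) and 1.65 after 7.4 Gy (0.0014), and -1.22 between days 12 and 4 after 7.4 Gy (0.049). By design the numbers do not pair the animals, since different groups hold different animals. Same-numbered arrays had a median r of 0.03 over 62 pairs of deviations from group means, with 16 over 0.1. For differently numbered arrays the median r was -0.01 over 182 pairs, with 30 over 0.1. Position as a covariate could be fitted for day 4 and between the doses, but not for days 7 and 12 against the controls or day 4. For day 4 its term for position 2 rests on the 4 arrays of day 4 after 6.7 Gy alone.

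The count of called probes on day 4 after 6.7 Gy, 1, became 0 with the methods' t-test after adjustment, 0 with the 2 groups alone and 2 with slide as a block. After 7.4 Gy it became 2 with the unadjusted t-test, with slide as a block and with slide as a random block, and was 1 to 3 without single arrays (3 without control replicate 4, 2 without replicate 4 of day 4 after 6.7 Gy). The unadjusted t-test gave 1 on day 12 after 7.4 Gy against the controls and 1 for day 12 against day 4 after 6.7 Gy. For day 12 against day 4 after 7.4 Gy the count was 0 with normexp, without the filter, with the adjusted t-test, with the 2 groups alone and with slide as a block, 2 with quantile normalization, 3 with the unadjusted t-test and 0 to 2 without single arrays. On day 7 after 7.4 Gy it was 0 to 1, with 1 only without replicate 3 of that group (MMP2, 1.11, limma adjusted p = 0.049). The causes were not tested.

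Signs turned only for members that were not called in either setting. After 6.7 Gy on day 4, MMP1 was 0.023 with normexp, MMP9 0.050 with slide as a block and 0.36 with position as a covariate and within position 1, and MMP14 -0.025 with normexp and -0.0033 with quantile normalization. After 7.4 Gy on day 4, MMP1 was -0.16 with position and -0.021 as the mean of its probes, and MMP9 0.63 with position. On day 7 after 7.4 Gy, MMP9 was 0.074 with slide as a block and 8e-04 with slide as a random block, and TIMP2 0.0017 as the mean of its probes. On day 12, TIMP3 was -0.0196 with normexp after 6.7 Gy and 0.036 as the mean of its probes after 7.4 Gy, and MMP3 0.095 with the replicate block after 7.4 Gy.

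Without single arrays, on day 4 after 6.7 Gy MMP1 ran from -0.25 to 0.18, MMP9 from -0.29 to 0.46, MMP12 from -0.081 to 1.38, MMP14 from -0.058 to 0.069 and TIMP3 from -0.010 to 0.67. After 7.4 Gy MMP1 ran from -0.16 to 0.27 and MMP9 from -0.42 to 0.33. On day 7 after 6.7 Gy MMP3 ran from -0.20 to 0.90, TIMP1 from -0.11 to 0.21 and TIMP3 from -0.24 to 0.43, and after 7.4 Gy MMP3 from -0.091 to 0.77, MMP9 from -0.27 to 0.48, TIMP2 from -0.14 to 0.044 and TIMP3 from -0.12 to 0.55. On day 12 after 6.7 Gy MMP3 ran from -0.71 to 0.15, MMP9 from -1.45 to 0.099, MMP12 from -0.20 to 2.48 and TIMP3 from -0.27 to 0.40, and after 7.4 Gy MMP3 from -0.48 to 0.38, MMP14 from -0.078 to 0.38, TIMP2 from -0.32 to 0.25 and TIMP3 from -0.67 to 0.0084.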
